A study of Mus musculus with 100 samples.

Results

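The genes described here are 9 members of the fibroblast growth factor (Fgf) system, 7 ligands (Fgf2, Fgf4, Fgf5, Fgf7, Fgf10, Fgf15 and Fgf17) and 2 receptors (Fgfr1 and Fgfr2), out of 25965 genes in the deposited expression table. They were chosen by name, and all 9 were found. Their RNA levels were measured in 18 libraries, 3 biological replicates of each of 6 groups. The MEFs were mouse embryonic fibroblasts from F1 hybrid embryos of an i4F-BL6 mother (C57BL/6J background, carrying a doxycycline-inducible polycistronic Yamanaka cassette of Oct4, Sox2, Klf4 and c-Myc) and a CAST/EiJ father. Induced pluripotent stem cells (iPSCs) came from female and male MEFs of this cross, reprogrammed with doxycycline in Knockout Serum Replacement (KSR) medium, which also held LIF. Their picked colonies were plated on feeders without doxycycline. The lines are F KSR2 and F KSR4, which are female, and the male M KSR3 and M KSR5, and every line is the progeny of 1 picked colony. TX 2i ESCs are the female embryonic stem cell line TX1072, also from a BL6 mother and a CAST father, grown in serum medium with LIF and the 2i inhibitors CHIR99021 (against GSK3) and PD0325901 (against MEK). The fibroblast libraries are all from female MEFs, so the male lines were compared with cells of the other sex. TX 2i ESCs differ from the KSR-iPSCs in both culture medium and line origin, which cannot be told apart.

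Fgfs are secreted proteins that bind receptor tyrosine kinases together with heparan sulfate, and a major route from the receptors runs through Ras, MEK and ERK. Mouse embryonic stem cells secrete Fgf4, which acts on their own Fgfr1 and Fgfr2 and drives ERK, and exit from the naive state needs this signal. Fgf7 and Fgf10 are classical mesenchymal ligands of an epithelial form of Fgfr2, Fgf5 marks the epiblast after implantation, and Fgf15 is an endocrine Fgf that acts with a Klotho coreceptor.

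For the ligands with the highest levels in pluripotent cells and in MEFs, Fgf4 and Fgf7, the 250 bases upstream of the transcription start are shown (RefSeq, GRCm38.p6, 5′ to 3′ on the gene's strand, CpG dinucleotides in capitals). The Fgf4 stretch is chr7:144861136-144861385 on the plus strand and the Fgf7 stretch is chr2:126034408-126034657 on the plus strand.
Fgf4: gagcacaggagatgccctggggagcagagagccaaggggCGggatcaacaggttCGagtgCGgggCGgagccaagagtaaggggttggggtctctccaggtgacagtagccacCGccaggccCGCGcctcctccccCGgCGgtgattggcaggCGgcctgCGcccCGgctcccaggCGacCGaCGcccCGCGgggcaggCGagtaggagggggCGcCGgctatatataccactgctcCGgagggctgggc
Fgf7: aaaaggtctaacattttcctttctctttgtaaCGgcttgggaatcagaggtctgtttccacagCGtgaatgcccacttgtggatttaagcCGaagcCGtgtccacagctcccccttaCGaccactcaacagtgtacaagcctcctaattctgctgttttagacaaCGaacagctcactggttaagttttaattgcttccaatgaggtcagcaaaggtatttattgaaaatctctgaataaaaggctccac
The Fgf4 stretch held 21 CpGs, and 16.3% of the 32851 promoters in the RefSeq table held as many or more. Fgf7 had 6, the median of all promoters. RefSeq entries were matched for 6 of the 9 members, and the other 4 held 24 (Fgf5), 20 (Fgf2), 8 (Fgf10) and 2 (Fgfr2) CpGs. The 3 members without an entry were Fgf15, Fgf17 and Fgfr1.

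Fgf4 is a textbook target of Oct4 and Sox2, which act on a composite element in its last exon. A search of the Fgf4 gene on both strands for CTTTGTT followed, after 3 bases, by ATGCTAAT found 1 match, on the plus strand in the 3′ untranslated part of that exon, at chr7:144864390-144864419 (GRCm38). It is shown with its flanks, the Sox and the octamer letters in capitals.
Fgf4 element: aactCTTTGTTtggATGCTAATgggatact
None of the 32851 RefSeq promoters, read over 300 bases on both strands, held both in this arrangement, while 5.85% held CTTTGTT and 0.919% held ATGCTAAT. A match is a description of the letters only, since binding was not measured.

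Reads assigned to genes numbered 13183036 to 17921280 per library (median 15722711). Levels are log2 RPM (reads scaled to the library's total), as the authors deposited them. A gene without reads is listed at the value of 0.9 read, so 1 read stands near -4.29 to -3.89. The 15 fibroblast markers summed to 26530 to 39020 RPM in the MEFs and to 22.4 to 211 RPM in the 15 pluripotent libraries, with the highest sum in M KSR5 replicate 3. The 11 pluripotency markers summed to 18.9 to 24.6 RPM in MEFs and to 3901 to 8708 RPM in pluripotent libraries. F KSR4 held the lowest correlation between 2 libraries of a group (0.965, replicates 1 and 2), and its replicate 2 had low formative epiblast markers (162.6 RPM, against 872.5 in the highest KSR library), so results were also computed without it and M KSR5 replicate 3. Fewer cells of a type and less RNA per cell cannot be told apart in these bulk samples. By the paper's methods, MEFs came from 1 female and 2 male embryos, so the female MEF libraries are not separate animals. The KSR lines of each sex came from MEFs of a single embryo. The main fits take 1 mean for each group or line. Their SEs and p-values thus measure the spread between libraries within a group or line. They hold no spread between lines or between embryos.

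The question asked of MEFs and KSR-iPSCs was which Fgf ligands and receptors differ between fibroblasts and the lines made from them. The mesenchymal ligands Fgf2, Fgf7 and Fgf10 and both receptors were lower in KSR-iPSC lines than in MEFs, and Fgf4, Fgf15 and Fgf17 were higher. Fitted across all genes (limma), 8 of 9 members passed an adjusted p of 0.05, 3 higher and 5 lower, and Fgf5 did not. Of the 14632 genes tested, 74.3% passed this threshold (41.8% higher and 32.5% lower in the lines), so most genes differed. The median member difference was -1.05 on the log2 scale, against 0.22 over all genes. Fgf2 and Fgf7 entered the test only through their levels in MEFs, and Fgf4, Fgf15 and Fgf17 only through those in pluripotent cells, so these 5 had to differ and their number supports nothing. For 7 members the MEF and KSR libraries did not overlap (53.1% of all genes).

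**Figure D1:**
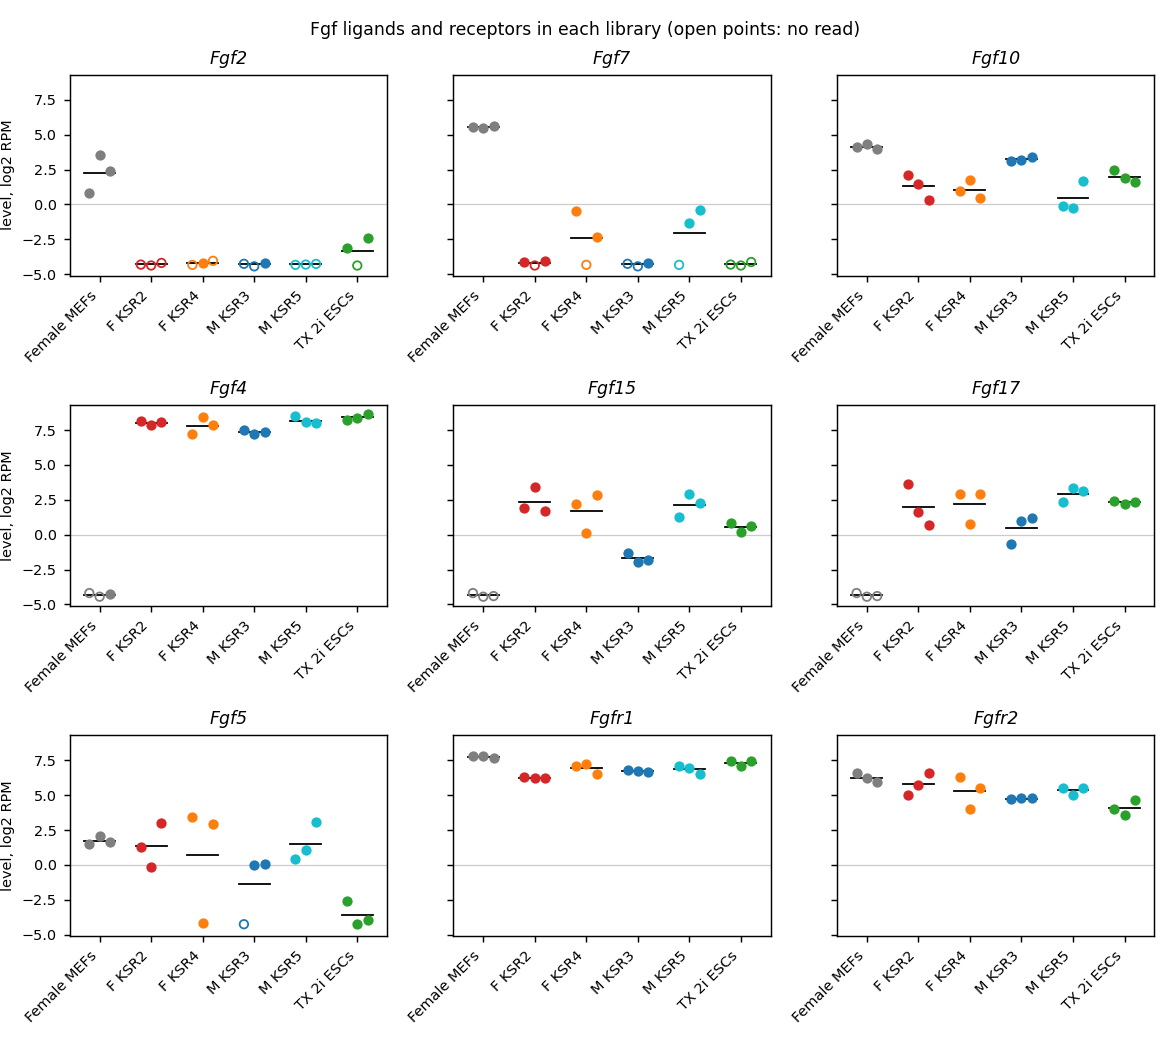
Level of each of the 9 genes in every library (y axis, log2 RPM; x axis, the 6 groups with replicates 1 to 3 from left to right; horizontal bars, group means; open points, libraries with no read). Fgf2 and Fgf7 are high only on the MEF side, Fgf4, Fgf15 and Fgf17 only on the pluripotent side, and Fgf5 and Fgfr2 spread widely within F KSR4.

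Fgf7 (chromosome 2, 126034658 to 126091185, plus strand, in file coordinates on GRCm38) had 758, 893 and 950 reads in the 3 MEF libraries, a level of 5.56 ± 0.07 log2 RPM (SD, n = 3). In the KSR-iPSC lines it had 0, 7 and 13 reads in M KSR5, 13, 0 and 3 in F KSR4, 1, 0 and 1 in F KSR2, and 0, 0 and 1 in M KSR3. The groups did not overlap, and MEFs had 257 times the RPM of the lines (counting interval 187 to 362, counting error only). Against the 0 reads of all 3 TX 2i libraries, Fgf7 in MEFs was at least 273-fold higher, taking 3 reads per library as the floor. The 13 reads in M KSR5 replicate 3 stood beside the highest fibroblast marker sum of any line (211 RPM). F KSR4 replicate 1 had as many reads at a sum of 55.4 RPM, and M KSR5 replicate 2 had 7 at 35.3 RPM. The part of fibroblast markers in these counts was not tested.

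Fgf2, the basic Fgf that fibroblasts produce and respond to, had 29, 225 and 102 reads in MEFs (2.26 ± 1.36 log2 RPM, SD, n = 3). The MEF libraries thus differed widely among themselves. The 12 KSR libraries held 2 Fgf2 reads in all, 1 in F KSR4 replicate 2 and 1 in M KSR3 replicate 3. TX 2i libraries had 2, 0 and 3 reads, and MEFs had 67.6 times their RPM (counting interval 28.7 to 210). The table's Fgf2 interval (chromosome 3, 37312519 to 37405377, plus strand) also spans Bbs12 on the same strand, and the exons used for counting are not given in the sources used here.

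Fgf10, a ligand of limb and lung mesenchyme, was the mesenchymal ligand that stayed measurable in every pluripotent library. It had 282, 394 and 294 reads in MEFs and 97, 70 and 49 in TX 2i ESCs. M KSR3 held 152, 180 and 188 reads, close below MEFs, while M KSR5 held 17, 15 and 55, F KSR2 77, 51 and 21, and F KSR4 36, 60 and 20. Over the 4 lines Fgf10 fell by 2.62 on the log2 scale (SE 0.41, limma adjusted p = 1.67e-05). That SE and p hold no spread between lines, whose means ran from 0.443 (M KSR5) to 3.245 log2 RPM (M KSR3). In M KSR3 alone the difference from MEFs was -0.88 (95% interval -1.97 to 0.20, limma adjusted p = 0.137), although no library of that line reached the lowest MEF library (67.6% of genes were called in this line). In the order of group means, MEFs and M KSR3 were each without overlap with the next group, and TX 2i ESCs, F KSR2, F KSR4 and M KSR5 overlapped their neighbours.

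Fgf4 (chromosome 7, 144861386 to 144865243, plus strand) had 0, 0 and 1 reads in MEFs. M KSR5 had 6485, 4717 and 4341 reads, F KSR2 5026, 4268 and 4435, F KSR4 2671, 6170 and 3374, and M KSR3 3150, 2973 and 2992. TX 2i ESCs had 5331, 6183 and 6363. The lowest pluripotent library, F KSR4 replicate 1, was far above every MEF library. The RPM of the KSR lines was 13140 times that of MEFs, but with 1 read in MEFs the counting interval ran from 2359 to 519100. The fitted difference was 12.14 (SE 0.19, limma adjusted p = 1.23e-18), a value that depends on the 0.9 read given to libraries without reads.

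Fgf15, which lies 31289 bases downstream of Fgf4 on chromosome 7 (144896532 to 144900953, plus strand), had 0 reads in all 3 MEF libraries. F KSR2 had 67, 201 and 52 reads, M KSR5 43, 135 and 83, F KSR4 83, 20 and 107, and TX 2i ESCs 32, 21 and 24. M KSR3 stood below all other pluripotent groups with 7, 5 and 5 reads. Against the floor of 3 reads per library, Fgf15 was at least 23.4-fold higher in the KSR lines together than in MEFs, and in M KSR3 at least 1.91-fold. Fgf17, a ligand of the Fgf8 subfamily on chromosome 14 (70636205 to 70642268, minus strand), was likewise without reads in all MEF libraries, and its level in the KSR lines was at least 31.7-fold higher. M KSR5 had 94, 183 and 148 Fgf17 reads, TX 2i ESCs 97, 84 and 79, F KSR4 137, 31 and 112, F KSR2 217, 57 and 27, and M KSR3 11, 38 and 41. Fgf17 varied widely within F KSR2 (SD 1.48 log2, n = 3), and M KSR3 had the lowest mean of the pluripotent groups.

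Fgf5 (chromosome 5, 98254184 to 98277030, plus strand) followed neither side of this split. MEFs had 47, 82 and 60 reads and TX 2i ESCs 3, 1 and 1. In the KSR lines the counts ran from 0 to 198, with 24, 38 and 144 in M KSR5, 0, 19 and 19 in M KSR3, 198, 1 and 114 in F KSR4, and 43, 17 and 129 in F KSR2. The lines and MEFs overlapped, and the difference was -1.19 (95% interval -3.77 to 1.39, limma adjusted p = 0.387), which leaves room for a change of several fold either way. The spread within F KSR4 (SD 4.26 log2, n = 3) was the widest of any member in any group.

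Fgfr1 (chromosome 8, 25513654 to 25575714, plus strand) is the main Fgf receptor of fibroblasts and of embryonic stem cells. It had 3599, 4328 and 3804 reads in MEFs, and the lines had 2411, 2693 and 1346 (F KSR4), 2524, 2215 and 1575 (M KSR5), 1899, 2106 and 1786 (M KSR3), and 1424, 1401 and 1203 (F KSR2). No KSR library reached the lowest MEF library, and Fgfr1 fell by 1.05 on the log2 scale (SE 0.15, limma adjusted p = 4.94e-06). TX 2i ESCs had 3155, 2582 and 2706 reads. The difference from MEFs was -0.40 there (95% interval -0.79 to -0.01), which missed the threshold (limma adjusted p = 0.0645) although the libraries did not overlap. It passed under median-of-ratios scaling, with the replicate block, in a fit of those groups alone, and without F KSR4 replicate 2, F KSR4 replicate 3 or M KSR5 replicate 3 (adjusted p from 0.0137 to 0.232 over all alternatives).

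Fgfr2 (chromosome 7, 130162451 to 133123350, minus strand) is among the receptors used by primitive endoderm and epithelia. MEFs had 1592, 1460 and 1148 reads and TX 2i ESCs 290, 222 and 394. The lines lay between, with 582, 966 and 1617 (F KSR2), 825, 561 and 802 (M KSR5), 1439, 288 and 681 (F KSR4), and 455, 534 and 488 (M KSR3). F KSR2 replicate 3 and F KSR4 replicate 1 reached the MEF range, and F KSR4 replicate 2 the TX 2i range. The fall from MEFs to the lines was -0.96 (SE 0.37, limma adjusted p = 0.025), and it was no longer called without MEF replicate 1 (-0.78, adjusted p = 0.116) or without MEF replicate 2 (-0.97, adjusted p = 0.0571). The table's Fgfr2 interval is 2960900 bases long and overlaps 19 other genes on its strand, and whether their reads entered its count was not tested.

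**Figure D2:**
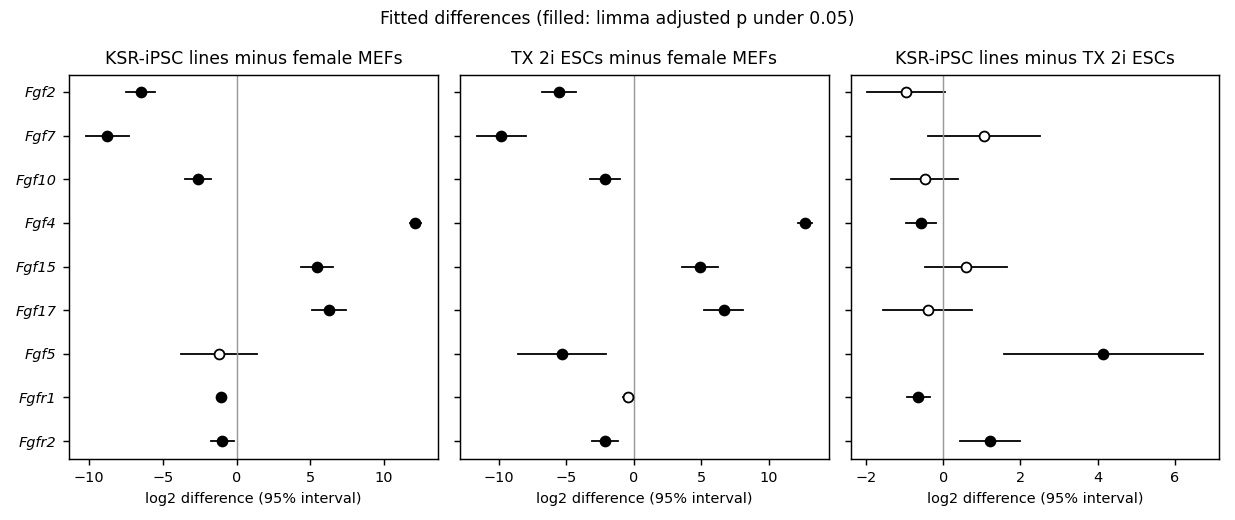
Fitted log2 differences (x axis) of the 9 members in 3 comparisons, with 95% intervals and filled points where the limma adjusted p was under 0.05. Both comparisons with MEFs share the MEF libraries, Fgf5 is an open point in KSR-iPSC lines and Fgfr1 in TX 2i ESCs, and the right panel, on a narrower scale, shows Fgf5 and Fgfr2 higher and Fgf4 and Fgfr1 lower in KSR-iPSC lines than in TX 2i ESCs.

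Against female MEFs, TX 2i ESCs also had 8 of 9 members past the threshold, with Fgf5 called and Fgfr1 not, beside 66.5% of all genes (37.5% higher and 29.0% lower). All 9 members were without overlap (76.4% of genes). Here too, Fgf2 and Fgf7 entered the test only through MEFs, and Fgf4, Fgf15 and Fgf17 only through pluripotent cells. These had to differ, and their number supports nothing. This comparison shares its MEF libraries with the former. The differences were -5.34 for Fgf5 (SE 1.55, limma adjusted p = 0.0057) and -2.17 for Fgfr2 (SE 0.46, limma adjusted p = 0.000504). For Fgf10 the difference was -2.13 (SE 0.51, limma adjusted p = 0.00146).

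KSR-iPSC lines were set against TX 2i ESCs to compare the Fgf genes between pluripotent cells of different medium and origin. Serum or KSR, the inhibitors of MEK and GSK3, and line origin differ together here and cannot be told apart. Fgf5 and Fgfr2 were higher in the KSR lines, and Fgf4 and Fgfr1 lower. These 4 of 9 members passed, beside 23.0% of all genes (11.0% higher and 12.0% lower). The other 5 had intervals that included 0. In this comparison every member's libraries overlapped between the 2 sides, where 10.2% of genes were without overlap. Single lines called 12.8% of genes (F KSR2), 15.4% (F KSR4), 23.1% (M KSR3) and 18.2% (M KSR5) against TX 2i ESCs.

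For Fgf5 the difference was 4.15 (SE 1.22, limma adjusted p = 0.0209). It was lost without TX 2i replicate 2 (3.83, adjusted p = 0.0998), without TX 2i replicate 3 (3.95, adjusted p = 0.0884) and by limma-voom (3.65, adjusted p = 0.21), with a range from 0.000416 to 0.21 over all alternatives. Of single lines, F KSR2 (4.96, limma adjusted p = 0.0428) and M KSR5 (5.11, limma adjusted p = 0.0287) passed. F KSR4 (4.33, limma adjusted p = 0.0674) and M KSR3 (2.19, limma adjusted p = 0.342) each held 1 library at or below 1 read. By summed RPM the KSR lines had 36.8 times the Fgf5 of TX 2i ESCs (counting interval 15.7 to 114).

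Fgfr2 was higher by 1.21 in the KSR lines than in TX 2i ESCs (SE 0.37, limma adjusted p = 0.0236), a call lost without TX 2i replicate 1 (1.18, adjusted p = 0.0882) or replicate 2 (0.95, adjusted p = 0.159). F KSR2 was the single line that passed for this gene (1.70, limma adjusted p = 0.0217). Primitive endoderm markers were also higher in this comparison, 6 of 7 (median 3.23) beside 11.0% of all genes. Their sums were 27.9 to 233 RPM in KSR libraries, 13.0 to 26.6 RPM in TX 2i ESCs and 184 to 289 RPM in MEFs. A high sum is thus not particular to primitive endoderm. Of the KSR lines, M KSR3 had the highest marker sums (197 to 233 RPM) and the lowest mean Fgfr2 (4.75 log2 RPM). F KSR2, with the highest mean Fgfr2 (5.78 log2 RPM), had sums of 27.9 to 75.5 RPM. The part of these markers in the Fgfr2 difference was not tested. For Fgf4 the difference was -0.57 (SE 0.19, limma adjusted p = 0.0352). The Fgf4 call was lost under median-of-ratios scaling, without any 1 TX 2i library, and without F KSR2 replicate 2, M KSR3 replicate 2 or 3, or M KSR5 replicate 2 or 3 (adjusted p from 0.00371 to 0.202 over all alternatives). M KSR3 passed alone for Fgf4, with -1.04 (limma adjusted p = 0.00457), and in it 6 of 7 primitive endoderm markers were higher than in TX 2i ESCs (median 4.38). The part of those markers in the Fgf4 difference was likewise not tested.

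Fgfr1 was lower by -0.64 in the KSR lines than in TX 2i ESCs (SE 0.15, limma adjusted p = 0.00405), and this call was kept in all alternatives run (adjusted p from 0.000924 to 0.0381). The level of chromosome 8 genes also differed between groups. Over 607 chromosome 8 genes other than Fgfr1, the median log2 level relative to 9998 genes of other autosomes was -0.32 ± 0.02 (SD, n = 3) in F KSR2 and -0.08 ± 0.17 in M KSR5, against 0.19 ± 0.04 in TX 2i ESCs, 0.16 ± 0.02 in M KSR3 and 0.05 ± 0.14 in F KSR4. F KSR2, the line with the lowest chromosome 8 median, had the lowest Fgfr1, and no other group overlapped it. M KSR3 did not follow this order, since its chromosome 8 median was near that of TX 2i ESCs while its Fgfr1 was lower than theirs by -0.61 (SE 0.18, limma adjusted p = 0.0242), and its mean Fgfr1 (6.72 log2 RPM) lay below that of M KSR5 (6.86), the line with the lower chromosome 8 median. Within F KSR4, replicate 3 was lower than the other replicates in both the chromosome 8 median (-0.10, against 0.16 and 0.10) and Fgfr1 (6.51 log2 RPM, against 7.05 and 7.22), and within M KSR5 so was replicate 3 (-0.28, against 0.01 and 0.02, with Fgfr1 at 6.51 against 7.12 and 6.96). The part of the chromosome 8 level in the Fgfr1 differences was not tested.

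Fgfr1 was the most abundant of the signalling receptors in MEFs and TX 2i ESCs. Levels of different genes were compared per kilobase of annotated coding-transcript exons (GENCODE M21). In MEFs, Fgfr1 had 40.9 ± 2.24 RPM per kilobase (SD, n = 3) and Fgfr2 15.1 ± 3.64. Of the summed Fgfr1 to Fgfr4 level, Fgfr1 made up 83.6% ± 3.36 in TX 2i ESCs (SD, n = 3 here and for the other groups) and 72.0% ± 3.78 in MEFs. The lines had less, with 65.3% ± 10.4 for F KSR4, 64.9% ± 7.84 for M KSR5, 59.1% ± 3.86 for M KSR3 and 48.6% ± 11.01 for F KSR2. F KSR2 replicate 3 was the single library in which Fgfr2 passed Fgfr1, with 51.0% against 37.2%. In F KSR4 replicate 2, by contrast, Fgfr2 made up 8.43% and Fgfr1 77.3%, near the TX 2i libraries. All these shares use the count of the long Fgfr2 interval, divided by the length of Fgfr2 exons alone. Reads of overlapping genes in that count would raise the Fgfr2 share and lower the others, which was not tested. Fgfr3 took 1.39% to 1.80% in MEFs and Fgfr4 less, and both reached their highest group means in M KSR3.

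**Figure D3:**
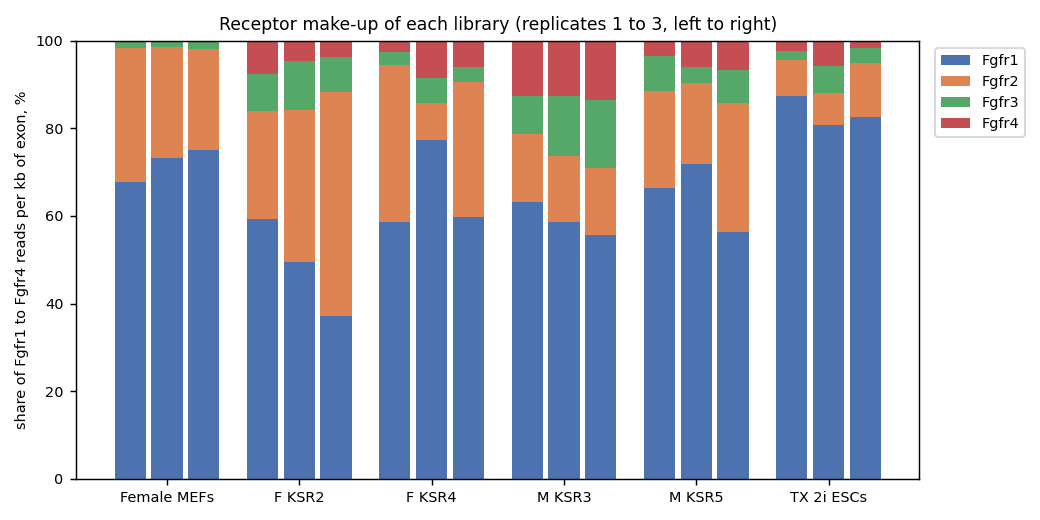
Stacked bars of the share (y axis, percent) of Fgfr1, Fgfr2, Fgfr3 and Fgfr4 in their summed reads per kilobase of exon, for each library by group. Fgfr1 takes 80.9% to 87.4% in TX 2i ESCs, Fgfr2 takes 51.0% in F KSR2 replicate 3, and Fgfr4 takes 12.5% to 13.5% in M KSR3. The Fgfr2 interval overlaps other genes, and whether their reads entered its count was not tested.

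Among the receptors outside the 9, Fgfr4 (preferred by endocrine Fgfs) was higher by 5.61 in KSR lines than in MEFs (SE 0.42, limma adjusted p = 1.79e-09), and Fgfr3 by 1.41 (SE 0.32, limma adjusted p = 0.000721). Fgfrl1, which lacks a kinase domain, was lower by -1.73 (SE 0.24, limma adjusted p = 3.87e-06). Klb, the Klotho coreceptor that Fgf15 needs with Fgfr4, had no read in MEFs and 80 to 435 reads in the KSR libraries. Unlike Fgf15, both Fgfr4 (240, 288 and 277 reads) and Klb (277, 435 and 403) were at their highest counts of the KSR lines in M KSR3. Fgf3, another secreted ligand gene 16950 bases upstream of Fgf4, had 0, 1 and 0 reads in MEFs, 7 to 44 in KSR lines and 159, 111 and 136 in TX 2i ESCs, and was lower by -2.64 in KSR lines than in TX 2i ESCs (SE 0.40, limma adjusted p = 0.000181). Of 11 other ligands 4 passed the filter on low values. Fgf8 had no read in MEFs and 1 to 57 in KSR libraries, at least 5.62-fold higher against the floor of 3 reads per library. Fgf18 had 60, 87 and 89 reads in MEFs and 3 to 28 in KSR libraries (-3.38). Fgf8, Klb and Fgfr4 (1 to 5 reads in MEFs) entered the test only through pluripotent libraries, and Fgf18 only through MEFs. All of these had to differ. For Fgf1 the difference was -0.13 (limma adjusted p = 0.898). Of the intracellular homologues, which are not secreted, Fgf11 (1.06, limma adjusted p = 0.125) and Fgf13 (0.14, limma adjusted p = 0.604) did not pass in that comparison.

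The rest of the pathway was described from lists of named genes. Of 15 coreceptors and cofactors tested, 11 were lower and 2 higher in KSR lines than in MEFs (median -2.31, against 0.22 over all genes), beside 32.5% lower and 41.8% higher of all genes. Those with the largest fitted differences were Klb, at least 71.3-fold higher against the floor of 3 reads in MEFs, the adhesion molecule Flrt2 (-6.48) and the syndecan Sdc3 (-5.79). Klb and Fgfbp1 of this list entered the test only through pluripotent libraries, so both had to differ. Of 11 heparan sulfate enzymes, 9 were lower and 1 higher (median -1.84), led by the sulfotransferase Hs6st2 (-4.81), the sulfatase Sulf1 (-3.56) and the chain polymerase Ext1 (-2.19). Adaptors and members of the Ras to ERK cascade went both ways, 7 higher and 5 lower of 18 (median 0.21), with the adaptors Gab1 (3.35) and Frs3 (1.56) higher and the phosphatase Ptpn11 (-1.17) lower. Of 16 target and feedback genes, 7 were higher and 2 lower (median 0.72), with the Ets factors Etv5 (3.21) and Etv4 (2.86) higher and Spred3 (-3.37), an inhibitor of Ras, lower. The cascade list (12 of 18 called) and the target list (9 of 16) were thus called no more often than the 74.3% of all genes.

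Against TX 2i ESCs the lists separated differently. Of the 16 Fgf target and feedback genes, 11 were higher in the KSR lines and 0 lower (median 1.59, against -0.005 over all genes), beside 11.0% higher and 12.0% lower of all genes. In TX 2i ESCs against MEFs 1 was higher and 10 lower (median -2.06), beside 37.5% higher and 29.0% lower of all genes. Spry4, a feedback inhibitor of the pathway, had 3, 1 and 5 reads in TX 2i ESCs and 75 to 5714 in KSR lines (9.22, SE 0.75, limma adjusted p = 4.21e-07). Etv4 (6.63) and the immediate early gene Egr1 (5.77) followed. Of 18 cascade genes 3 passed, beside 23.0% of all genes, and they included Nras, which was higher (0.68), and Map2k1, which encodes MEK1 and was lower (-0.46). Among coreceptors 6 of 15 were lower and none higher (12.0% and 11.0% of all genes), led by Gpc3 (-1.86), Flrt1 (-1.65) and Sdc2 (-1.53), and of the heparan sulfate enzymes Hs6st2 was higher (1.68), with Ext2 (-0.77) and Glce (-0.46) lower.

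F KSR4 replicate 2 had the lowest Spry4 (75 reads) of the 12 KSR libraries, the lowest Dusp6 (212 reads), the lowest Fgfr2 (288) and 1 read of Fgf5, but the line's highest Fgf4 (6170), Fgfr1 (2693) and Fgf10 (60). Over the 15 pluripotent libraries, the genes whose pattern was most like that of Fgfr2 were Nrk (Pearson r = 0.906) and Otx2 (0.905), an epiblast factor. For Fgfr1 they were Cc2d1a (0.884) and Polr2c (0.868), both on chromosome 8 like Fgfr1 itself, and for Fgf4 Macrod1 (0.931) and Nipal3 (0.898). Over all 18 libraries, Fgf4 was most like Pou5f1 (0.998), which encodes Oct4, and Cecr2 (0.998). The nearest genes were Slc14a1 (0.983) and Lrrtm2 (0.982) for Fgf2, Eya4 (0.980) and Fat4 (0.977) for Fgf7, Ptprd (0.907) and Pag1 (0.907) for Fgf10, and Fam83h (0.882) and Gja1 (0.879) for Fgf5. For Fgf15 they were Pim2 (0.961) and Vrtn (0.958), for Fgf17 Pou3f1 (0.959) and Cyp2b23 (0.957), for Fgfr1 Kif1b (0.915) and Dvl1 (0.906), and for Fgfr2 Nrk (0.908) and Gbp3 (0.901). Pou5f1 had no read in MEFs and Fgf4 had 1 in all. Their r over 18 libraries thus largely follows from the split between MEFs and pluripotent cells. Members at or near 0 reads on 1 side of that split (Fgf2, Fgf7, Fgf15 and Fgf17) share this limit. The libraries of a line share its origin, so these correlations describe the libraries only.

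The female and male KSR lines were compared for the 7 members that passed the filter in those 12 libraries, Fgf2 and Fgf7 being too low. Fgf15 was higher in the female lines by 1.81 (SE 0.49, limma adjusted p = 0.0435), with counts of 20 to 201 in female and 5 to 135 in male libraries, which overlapped. It was the 1 member called, beside 6.24% of 13609 genes (2.65% higher and 3.59% lower in females). The split of all calls depended on scaling, with 42.4% higher in females as deposited and 59.7% after median-of-ratios scaling. The low male values were those of M KSR3, and M KSR5 was higher than M KSR3 by 3.85 (SE 0.70, limma adjusted p = 0.0156). With the line as a random effect the female to male difference was not called (adjusted p = 0.382, range over alternatives 0.00607 to 0.382), and leaving out any single library other than F KSR4 replicate 2 also lost the call. Intervals of the other 6 members included 0, the widest for Fgf5 (1.00, -1.57 to 3.56).

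Between the male lines, Fgf10 was lower in M KSR5 than in M KSR3 by -2.80 (SE 0.58, limma adjusted p = 0.0288) and Fgf15 higher, 2 of 7 members beside 2.09% of genes. For 6 of the 7 members the libraries of these lines did not overlap (33.7% of genes). The Fgf10 call was lost without any 1 library of the male lines except M KSR5 replicate 3 (adjusted p up to 0.142) and without a filter on low values (0.0652, range over alternatives 0.00512 to 0.142). The Fgf15 call was lost by limma-voom (0.0853) and without M KSR3 replicate 2, M KSR3 replicate 3 or M KSR5 replicate 2 (0.0904 to 0.0998, range over alternatives 0.00265 to 0.0998). In M KSR3 all 3 libraries also had the highest primitive endoderm marker sums of the lines. They were 197 to 233 RPM over 7 genes, against 27.9 to 90.8 in the other KSR libraries, with Gata6 at 655, 843 and 843 reads. MEFs had 184 to 289 RPM over the same genes, so a high sum is not particular to primitive endoderm. Formative epiblast markers summed to 362 to 389 RPM over 6 genes in M KSR3 and to 707 to 826 RPM in M KSR5, where 2 of the 6 were called higher (median 1.12). The part of both marker lists in the Fgf10 and Fgf15 differences was not tested. Between the female lines none of 7 members was called, beside 0.198% of genes, and the differences had wide intervals, for Fgfr1 0.68 (0.21 to 1.15, limma adjusted p = 0.222) and for Fgfr2 -0.50 (-1.53 to 0.52).

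Reads that carry a strain-specific base were assigned to the maternal BL6 or the paternal CAST genome. Fgfr1 had 265 to 885 such reads per library. The maternal share of Fgfr1 was 48.4% ± 2.64 in MEFs (SD, n = 3), 51.2% ± 4.00 in TX 2i ESCs, 45.8% ± 3.36 for M KSR5 and 45.6% ± 0.407 for F KSR2, but 64.6% ± 3.55 for M KSR3. In F KSR4 it was 64.6% and 64.5% in replicates 1 and 2 and 51.9% in replicate 3. The share over all of chromosome 8 moved in the same libraries, at 65.1% to 65.6% in M KSR3, 65.95%, 65.89% and 56.47% in replicates 1 to 3 of F KSR4, 51.3% to 51.8% in MEFs and 50.6% to 51.3% in F KSR2. M KSR3, F KSR4 and F KSR2 did not overlap MEFs in Fgfr1 share (exact permutation test, two-sided, p = 0.1, the smallest that 3 against 3 allows, and 0.171 after adjustment over 12 comparisons of members and groups), so this test cannot reach the threshold. Without overlap were 7 of these 12, and over autosomal genes with at least 5 allelic reads in each library the share without overlap with MEFs was 30.6% for the 5 groups together, with 35.7% in M KSR3, 25.2% in F KSR4, 30.9% in F KSR2 and 33.6% in TX 2i ESCs.

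**Figure D4:**
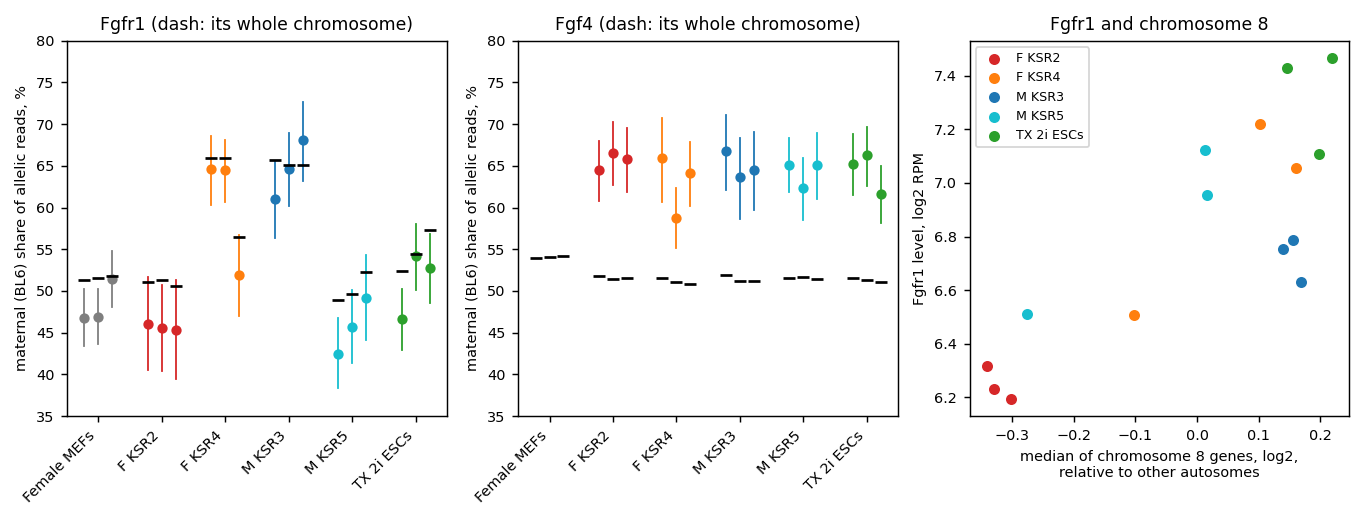
Left and middle, maternal share of Fgfr1 and Fgf4 reads in each library (y axis, percent, points with 95% Wilson intervals; dashes, the share over the whole of chromosome 8 or 7; Fgf4 had no allelic reads in MEFs). Right, Fgfr1 level (log2 RPM) against the median level of chromosome 8 genes in the 15 pluripotent libraries, with F KSR2 lowest on both axes.

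Fgf4 was maternally skewed to a similar degree in all 5 pluripotent groups, with 64.4% ± 2.45 in TX 2i ESCs (SD, n = 3), 65.6% ± 1.04 and 62.9% ± 3.71 for F KSR2 and F KSR4, and 65.0% ± 1.60 and 64.2% ± 1.63 for M KSR3 and M KSR5. Chromosome 7 as a whole was at 50.9% to 51.9% in these libraries. Each group had 1192 to 2120 allelic Fgf4 reads, and no group's 95% Wilson interval came below 59.8%. All groups have a BL6 mother, so parent of origin, strain and any preference of read mapping for the reference genome cannot be told apart. Fgfr2, on the same chromosome, went the other way, from 55.5% ± 3.84 in MEFs to 34.7% ± 6.78 in TX 2i ESCs, 41.3% ± 4.00 for F KSR2 and 41.2% ± 7.88 for F KSR4, each without overlap with MEFs (exact permutation p = 0.1, adjusted 0.171). M KSR3 (50.4% ± 13.7) and M KSR5 (41.2% ± 13.3) overlapped MEFs. Whether allelic reads of genes that overlap the long Fgfr2 interval entered these shares was not tested.

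In MEFs the mesenchymal ligands were skewed in different directions. Fgf2 was 86.5% ± 5.96 maternal (77 of 87 reads in all), Fgf7 61.9% ± 5.58 (206 of 331) and Fgf10 25.6% ± 9.66 (21 of 93), while chromosomes 3, 2 and 13 were at 52.6%, 51.3% and 53.0%. Fgf10 in M KSR3 was at 45.2% ± 11.6 (22 of 50 reads), without overlap with MEFs (exact permutation p = 0.1, adjusted 0.171). For Fgf5, Fgf15 and Fgf17 no group had more than 89 allelic reads, and the summed Wilson intervals were wide, such as 44.7% to 65.0% for Fgf15 in F KSR2 and 37.3% to 58.2% for Fgf17 in M KSR5. Wilson intervals cover counting error only, since reads without molecular identifiers are not independent molecules.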

How the data were processed

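Poly(A) RNA of 18 libraries was sequenced on strand-specific libraries. Per the study's methods and the labels, the authors trimmed reads (Trim Galore 0.6.1), aligned them with HISAT2 2.1.0 to GRCm38, obtained allelic reads by alignment to the BL6 and CAST genomes without reads of conflicting strain bases, and quantified genes by strand in SeqMonk. The deposited values are log2 RPM, for all reads and for each parental genome. All 72 value columns were matched to libraries by name. Methylation amplicons of the same study were not analysed here. Read numbers were recovered from the deposited log2 values, with 99.96% to 100% of values within 0.05 read of a whole number. No count model was used as the main test. Genes whose value exceeded 0 in 3 or more libraries were tested with limma 3.58.1 (R 4.3.3, trend and Benjamini-Hochberg adjustment, threshold 0.05) in 1 fit of 6 groups over 18 libraries, and female against male and line against line in 12 libraries. The fit was tested on simulated data. Maternal shares (libraries with at least 5 allelic reads) were compared by exact permutation tests (scipy 1.17.1). Sequences came from RefSeq (GRCm38.p6). Gene names are those of the table, since its gene identifiers do not always belong to the named gene.

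The members and all lists were chosen with earlier results of these data known. The text names all 9 members, the other Fgf ligands, homologues and receptors that passed the filter, the 3 genes of each other pathway list with the largest called difference (KSR lines against MEFs and against TX 2i ESCs), and the 2 genes most correlated with each member. Genes named beside a result (Spry4, Dusp6, Gata6, Klb) for their reads by library, and Fgfbp1 for how it passed the filter, were chosen after their values were seen. Median-of-ratios scaling shifted the median of all genes by -0.18 (KSR lines against MEFs), -0.20 (TX 2i against MEFs), 0.10 (female against male) and 0.13 (F KSR4 against F KSR2) on the log2 scale, and no member changed direction under it. Other alternatives were log2(RPM + 1), no filter, a filter at 2, limma-voom, a replicate block, each library left out and, chosen after seeing the data, F KSR4 replicate 2 and M KSR5 replicate 3 left out together. The value of 1 gene of the cascade list is not reported here.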

Additional observations from a re-analysis of the deposited data

Results flagged for a closer look

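Fgf15 differed between female and male KSR-iPSC lines by 1.81 on the log2 scale (SE 0.49, limma adjusted p = 0.0435), in a comparison of 2 clones of each sex. The call was lost with the line as a random effect (adjusted p = 0.382) and with the replicate block (adjusted p = 0.0659), and the low male values were those of the 1 clone M KSR3. Female libraries had 67, 201 and 52 reads (F KSR2) and 83, 20 and 107 (F KSR4), and male libraries 7, 5 and 5 (M KSR3) and 43, 135 and 83 (M KSR5). Of 18 sets of 6 libraries (each member in the female and in the male lines), none held a single library beyond the 95% critical gap of Dixon's test, where about 1 in 20 would be passed by chance. Each set pools 2 lines, so a gap between lines can hide a library that stands apart within its own line. The sets also included Fgf2 and Fgf7, which were near 0 reads in these lines. This result thus does not show that no library stood apart.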

How the results depend on the processing

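In KSR lines against MEFs, the number of members called was 5 to 8 on leaving out 1 library (with 2 MEF libraries, Fgf2 and Fgf7 no longer passed the filter on low values), and in TX 2i ESCs against MEFs 6 to 9. In KSR lines against TX 2i ESCs it was 1 to 4, with 2125 to 4317 genes called. Female against male lines lost the 1 member called (to 0) with log2(RPM + 1), without a filter, by limma-voom, with the replicate block and with the line as a random effect, and had 0 to 1 on leaving out 1 library. Of all genes, 849 were called there, but 1523 in a fit of all 18 libraries, 138 with the line as a random effect, 1353 without F KSR4 replicate 2 and M KSR5 replicate 3, and 391 to 1672 on leaving out 1 library. Of F KSR4 against F KSR2, 27 genes were called, but 45 under median-of-ratios scaling, 42 with the replicate block, 1 in a fit of those groups alone, 100 without those 2 libraries, and 2 to 881 on leaving out 1. Of M KSR5 against M KSR3, 2 members and 285 genes were called. These were 1 and 186 without a filter, 1 member by limma-voom, 4 and 1851 in a fit of those groups alone, 725 genes without the 2 libraries, and 0 to 4 members and 20 to 792 genes on leaving out 1. The causes were not tested.

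Only differences that had not been called turned direction. Between female and male lines, Fgf4 was -0.057 without the 2 libraries, and on leaving out 1 it ranged from -0.008 to 0.295 and Fgf17 from -0.039 to 0.724. Between F KSR4 and F KSR2, Fgf5 was 0.31 with log2(RPM + 1), and without the 2 libraries Fgf5 was 1.83, Fgf15 0.19 and Fgfr2 0.14. On leaving out 1 library, Fgf4 ranged there from -0.50 to 0.11, Fgf5 from -1.98 to 1.83, Fgf10 from -0.73 to 0.15, Fgf15 from -1.16 to 0.19, Fgf17 from -0.40 to 1.04 and Fgfr2 from -1.02 to 0.14. Replicate numbers did not pair the libraries (median correlation of same-numbered deviations 0.04, lowest -0.20), so the block result shares only a number. It called Fgfr1 in TX 2i ESCs against MEFs (adjusted p = 0.0397) and lost Fgf15 between female and male lines (adjusted p = 0.0659). The number of maternal shares without overlap with MEFs was 7 of 12 (30.6% over all autosomal genes), 5 of 9 with at least 20 allelic reads (31.9%), and 7 to 10 on leaving out 1 library. A shift below the spread of 3 libraries was not detectable for Fgf5, Fgf15 and Fgf17 within lines at these read numbers.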
